A study of Mus musculus with 24 samples.

Results

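The solute carrier families Slc1, Slc3, Slc6, Slc7, Slc36, Slc38 and Slc43 hold most of the carriers that move amino acids across the membranes of mammalian cells. The genes described here are the 65 protein-coding rows of the deposited count table whose symbols place them in these families, of 24537 rows in all and 20712 protein-coding rows. They were chosen by symbol alone and in every one of the 24 libraries. Of the 65, 63 encode members of the carrier families. Slc7a6os and Slc6a19os only share the name of a neighbouring carrier gene, and their products are no carriers.

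RNA was sequenced from whole extensor digitorum longus (EDL) muscles, which are mostly fast-twitch, and soleus (SOL) muscles, which are mostly slow-twitch, of mice aged 2 months. All mice were 4Fhet. They carried a polycistronic cassette of the reprogramming factors Oct4 (Pou5f1), Sox2, Klf4 and Myc (OSKM) that answers to doxycycline (Dox), and an rtTA activator behind a LoxP-STOP-LoxP block. Acta1-Cre+/4Fhet mice (Cre+) also carried a Cre under the promoter of skeletal muscle actin, which removes the block in myofibers, and Acta1-Cre-/4Fhet mice (Cre-) did not and served as controls. Both genotypes drank water with 1 mg/ml Dox. Muscles were taken after 2.5 days, after 5.5 days and after 8.5 days, and each muscle, genotype and time point gave 2 libraries. The series' design text sets the libraries of day 5.5 aside as outliers, so the tests below used the 16 libraries of 2.5 and 8.5 days unless 5.5 days is named. Whole muscle also holds endothelium, satellite cells, fibroblasts, adipocytes and nerve, so in every comparison fewer cells of a type and less RNA per cell cannot be told apart.

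Amino acid carriers differ in how they are driven. Slc1, Slc38 and most Slc6 carriers use the sodium gradient and can concentrate their substrates, Slc36 carriers use protons, Slc43 and many Slc7 carriers exchange or equilibrate them, and Slc7 light chains need an Slc3 heavy chain to reach the cell surface. Skeletal muscle is a main store of free amino acids and exports glutamine and alanine. Leucine, arginine and glutamine that enter the cell are sensed at the lysosome by mTORC1, the kinase complex that sets the rate of protein synthesis.

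The 16 libraries held between 36088781 and 53041969 counts each, and the 8 libraries of 5.5 days between 37834210 and 54679082. Levels are given as FPKM, the count of a gene per length of its exons and per size of the library, scaled by TMM, a correction for differences in RNA composition, so that levels and fold changes are on one scale. A gene was called higher or lower at a Benjamini-Hochberg adjusted p under 0.05 over all genes tested by edgeR's quasi-likelihood test and an absolute log2 fold change over 0.5. As a check of the muscle labels, 9 of 10 fast fibre genes were higher and 1 was lower, and 8 of 8 slow fibre genes were lower, in EDL muscles than in SOL muscles of Cre- mice. All 4 OSKM genes were called higher in Cre+ EDL muscles at 2.5 and 8.5 days, and 2 of the 4 in Cre+ SOL muscles at either time point. The induction was uneven among libraries. Myc stood at 22.2 and 82.4 FPKM in the 2 Cre+ EDL libraries of 2.5 days, at 75.8 and 71.9 in those of 8.5 days, between 7.39 and 16.8 in the Cre+ SOL libraries of these time points, and between 1.93 and 3.50 in the Cre- libraries of the same days.

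Of the 65 genes, 45 had counts enough to be tested and 20 had not. Among the 20, 4 had no count in any library (Slc7a12, Slc6a21, Slc6a5 and Slc36a3) and the highest count of the others was 13. A mean of at least 1 FPKM in at least 1 of the 12 groups was reached by 31 genes, of which 30 are carriers and the other is Slc7a6os. The Slc38 group of glutamine and alanine carriers was the best represented, with 8 of 11 genes at 1 FPKM or more. All 3 Slc43 genes, 3 of 4 Slc36 genes, both neutral amino acid exchangers of Slc1 (Slc1a4 and Slc1a5) and 5 of 10 Slc7 light chains reached that level. Of the 11 Slc6 carriers of amino acids only Slc6a9 did, and of the 9 Slc6 carriers of amines and osmolytes 3 did. No row has a second copy in the annotation.

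In Cre- muscles the levels spanned a wide range and were led by Slc38a3, a carrier that moves glutamine, asparagine and histidine with sodium against protons. Slc38a3 stood at 67.7 ± 17.2 FPKM in Cre- EDL muscles and 98.9 ± 12 in Cre- SOL muscles (SD, n = 4 libraries of 2.5 and 8.5 days, as in the next sentences). Slc6a8, the creatine carrier, followed at 46.7 ± 2.97 in EDL and 58.5 ± 9.33 in SOL muscles, and Slc6a6, the taurine carrier, at 23.5 ± 4.99 and 29.1 ± 6.37. The ranges of Slc38a3 and Slc6a8 did not overlap in either muscle, while those of Slc6a6, Slc38a2 and Slc38a10 overlapped one another in EDL muscles.

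Slc38a2, which takes up small neutral amino acids with sodium, stood at 19.5 ± 3.46 FPKM in Cre- EDL muscles and 29.2 ± 9.26 in Cre- SOL muscles. Slc3a2, the heavy chain that most light chains pair with, stood at 17.1 ± 2.57 and 12.3 ± 1.4. Its light chains were all below it. Slc7a6 (5.90 ± 1.22 in EDL muscles), Slc7a8 (4.5 ± 2.45) and Slc7a5 (1.61 ± 0.446) followed. The 4 libraries of Slc7a5 lay between 1.30 and 2.26 and below all of those of Slc7a6, while Slc7a8 overlapped both.

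Among cationic amino acid carriers, Slc7a2 stood at 9.73 ± 2.47 FPKM in Cre- EDL muscles, and Slc7a1, the arginine and lysine carrier found in most tissues, at 1.66 ± 0.542. The glutamine exchanger Slc1a5 stood at 12.3 ± 4.70. The lysosomal carriers Slc38a7, Slc38a9 and Slc36a1 were lower, at 4.21 ± 0.655, 1.74 ± 0.140 and 2.79 ± 0.361. The remaining 14 of the 45 tested genes were under 1 FPKM in every group.

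**Figure D1:**
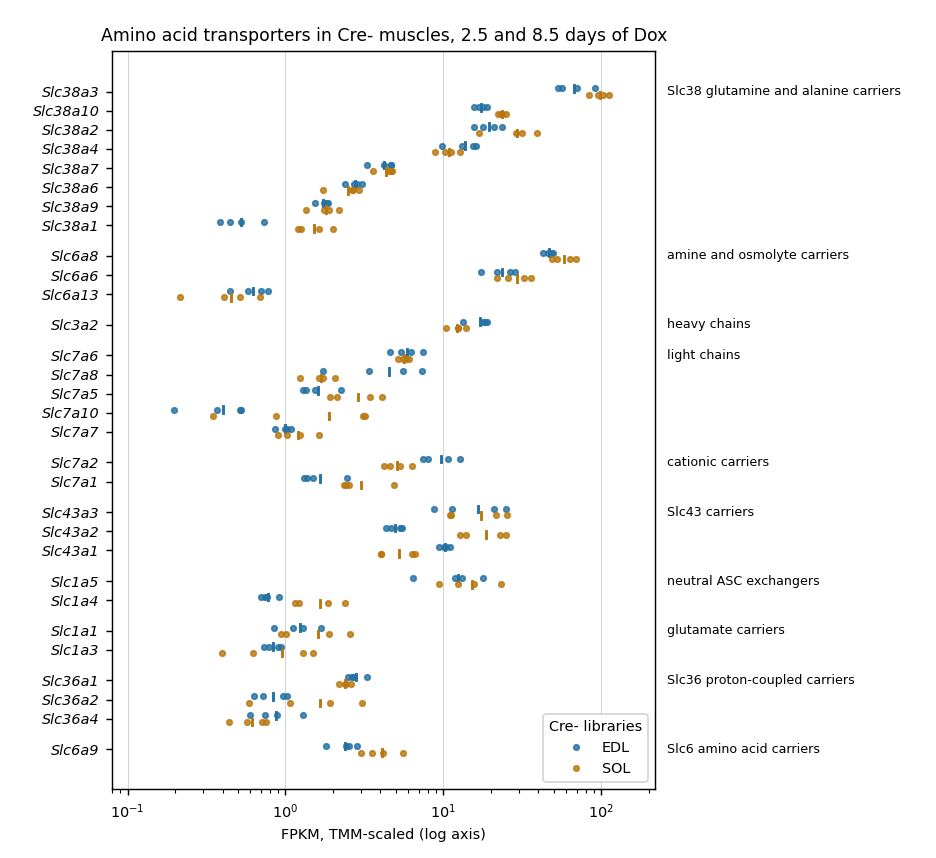
Levels of the 30 carriers that reached 1 FPKM in a group, in the Cre- libraries of 2.5 and 8.5 days. Each point is a library, each bar the mean of 4 libraries of a muscle, the horizontal log axis gives FPKM and the rows are grouped by role. Slc38a3 leads in both muscles and Slc43a2 and Slc38a1 lie higher in all 4 SOL libraries than in any EDL library.

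The plot of levels in Cre- muscles shows that most carriers of muscle lay within the same range in EDL and SOL libraries, and that a few were apart. Added over all 65 genes, the level was 333 FPKM in Cre- EDL muscles of 2.5 days and 264 in Cre+ EDL muscles (means of 2 libraries). Slc38a3 made up 26.1% and 22.2% of that sum in the 2 Cre- libraries and 7.21% and 4.65% in the 2 Cre+ libraries.

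The first comparison asks which carriers respond to OSKM in fast-twitch muscle after 2.5 days of Dox. In Cre+ EDL muscles 7 carriers rose, 6 fell and 32 of the 45 tested genes were not called. The cationic carriers Slc7a1 and Slc7a4, the leucine carrier Slc7a5, the lysosomal carrier Slc36a1, and Slc6a15, Slc6a9 and Slc38a4 rose. The glutamine carrier Slc38a3, the light chain Slc7a8, the cationic carrier Slc7a2, the creatine carrier Slc6a8, the glutamate carrier Slc1a1, and Slc43a3 fell. Of all 15372 genes tested, 13.8% were called higher and 10.2% lower, so that the share of carriers called was near that of all genes. The median log2 fold change of the 45 genes was 0.05, and that of all genes tested was -0.05.

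By role, 2 of 4 tested cationic carriers rose and 1 fell, 2 of 5 Slc6 amino acid carriers rose, and 1 of 3 Slc36 carriers rose. Of the 6 tested light chains 1 rose and 1 fell, and so did 1 each of the 9 Slc38 carriers. Of the others 1 of 3 Slc43, 1 of 7 amine and osmolyte and 1 of 3 glutamate carriers fell. Neither the 2 heavy chains nor the 2 neutral exchangers were called.

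The calls depend on the scaling. Scaled by library size only, 12 genes were higher and 1, Slc38a3, was lower, beside 4207 and 610 of all genes. This scaling moved the median of all genes tested to 0.28, and the changes above are relative to the TMM scale.

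Slc7a1 (chr5:148327410-148399904, minus strand, mm10) showed the largest rise. Its levels were 6.06 and 22.2 FPKM in the Cre+ EDL libraries of 2.5 days and 1.36 and 1.32 in the Cre- libraries. Both Cre+ libraries were thus far above the controls but differed widely from each other. Its log2 fold change was 3.39 (SE 0.49, adjusted p = 0.000378). Myc stood at 22.2 FPKM in the Cre+ library with less Slc7a1 and at 82.4 in that with more, and the part of this difference in the result was not tested. Without that second Cre+ library, Slc7a1 was still called, at 2.18. Here and in what follows, leaving out a library leaves 1 in its group, which is assumed to vary like the libraries of the other groups.

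Slc7a5, the light chain that with Slc3a2 imports leucine and other large neutral amino acids, was at 2.77 and 6.38 FPKM in Cre+ EDL libraries and 1.30 and 1.55 in Cre- libraries. The groups did not overlap, which between 2 and 2 libraries is, here and below, a description and not support for a change. The same Cre+ library was the highest. The rise was 1.67 on the log2 scale (SE 0.34, adjusted p = 0.00284), and 0.96 without that library, still called. Its partner Slc3a2 stood at 21.3 and 28.8 FPKM against 18.3 and 17.8. This difference of 0.47 (SE 0.17) did not pass the test, with an adjusted p of 0.0596.

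Slc36a1 (chr11:55204340-55236330, plus strand), a proton-coupled carrier of small neutral amino acids that is found on lysosomes, was at 5 and 6.11 FPKM in Cre+ EDL libraries and at 2.72 and 2.65 in Cre- libraries. Its Cre+ libraries lay close together and well above the controls. On the log2 scale it rose by 1.04 (SE 0.16, adjusted p = 0.000515), and it was called under all 13 alternative settings. Among the alternatives, here and below, is the main fit without a limit on the fold change, which keeps every call by construction.

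Slc6a9, the glycine carrier GlyT1, was at 4.02 and 5.23 FPKM against 2.83 and 2.54 (log2 fold change 0.78, SE 0.19, adjusted p = 0.00964). Slc38a4, a further carrier of neutral amino acids, was at 15.5 and 22.5 FPKM against 9.87 and 13.1 (0.71, SE 0.19, adjusted p = 0.0125). The genotypes did not overlap in either gene. Without the second Cre+ library neither was called, with log2 fold changes of 0.59 and 0.43. Slc6a9 was not called without the second Cre- library (0.70) either, nor Slc38a4 without the first (0.52).

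The other 2 carriers that rose were scarce. Slc7a4, a relative of the cationic carriers whose substrate is not settled, was at 0.430 and 0.551 FPKM (76 and 95 counts) in Cre+ EDL libraries against 0.0807 and 0.170 (11 and 23 counts). Slc6a15, a neutral amino acid carrier known from neurons, was at 0.297 and 0.856 FPKM (59 and 166 counts) against 0.0456 and 0.0983 (7 and 15 counts). Neither gene overlapped between genotypes. Their log2 fold changes were 1.96 (SE 0.43, adjusted p = 0.00507) and 2.98 (SE 0.61, adjusted p = 0.00307). Without the first Cre- library Slc7a4 was not called, at 1.52, and without the second Cre+ library Slc6a15 was at 2.04 and still called.

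Slc38a3 (chr9:107651155-107668968, minus strand) showed the largest fall and had the smallest adjusted p of the 45 genes. It was at 18.2 and 12.8 FPKM in Cre+ EDL libraries and at 91.0 and 70.2 in Cre- libraries. The highest Cre+ library was far below the lowest control. The log2 fold change was -2.38 (SE 0.23, adjusted p = 3.01e-05), and it stayed called, between -2.67 and -2.06, under all 13 alternatives, including library size alone.

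Slc7a2, the cationic carrier that in Cre- EDL muscles exceeded Slc7a1, was at 8.47 and 6 FPKM in Cre+ libraries against 12.7 and 10.7. Slc7a1 and Slc7a2 thus moved in opposite directions, by 3.39 and -0.70 (SE 0.18, adjusted p = 0.0129). Slc7a8, a light chain for neutral amino acids, was at 3.53 and 2.85 FPKM against 7.32 and 5.59. The groups of both genes did not overlap. The log2 fold change of Slc7a8 was -1.02 (SE 0.27, adjusted p = 0.0135), opposite to that of the light chain Slc7a5.

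The creatine carrier Slc6a8 was at 32.9 and 23.3 FPKM against 42.8 and 46.1, a log2 fold change of -0.67 (SE 0.17, adjusted p = 0.0123). The glutamate carrier Slc1a1 was at 0.588 and 0.537 FPKM against 0.852 and 1.29, or -0.94 (SE 0.28, adjusted p = 0.0241). Slc43a3, a family member known to carry purine nucleobases rather than amino acids, was at 13.7 and 16.3 FPKM against 25.1 and 21.0, or -0.62 (SE 0.16, adjusted p = 0.0136). In each of the 3 genes every Cre+ library was below every control. The calls of the smaller falls rest on few libraries. Without the second Cre+ library, Slc6a8 (-0.43), Slc7a2 (-0.47), Slc7a8 (-0.87) and Slc1a1 (-0.86) were not called, which left Slc38a3 and Slc43a3. Slc43a3 in turn was not called without the first Cre+ library (-0.51) or the first Cre- library (-0.48). Slc7a2 (-0.57) and Slc7a8 (-0.81) were not called without the first Cre- library, Slc6a8 (-0.62) and Slc1a1 (-0.61) without the second, and Slc1a1 (-1.01) without the first Cre+ library.

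Markers of another cell type moved in the same comparison. Of 10 endothelial markers 7 fell, with a median log2 fold change of -0.62, and their summed level was 116 to 126 FPKM in Cre+ EDL libraries and 176 to 200 in Cre- libraries. Fast fibre genes fell in 5 of 10 cases. Of the 8 satellite cell markers 2 rose and 6 were not called, with a median log2 fold change of 0.13. The summed level of the 8 was 184 to 226 FPKM against 60.4 to 60.9. The part of these shifts in the fall or rise of single carriers was not tested.

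The regions just before the start sites of the called genes were searched for a pair of short motifs. CACGTG is the canonical E-box that Myc and its partner Max bind, and TGATGNAA, searched on both strands, is the core of the element through which ATF4 raises transcription when amino acids are short. CACGTG reads the same on both strands. RefSeq start sites (GRCm38.p6) were on hand for 47 of the 65 genes and for 27025 genes in all, and the 250 bases before each were searched. CACGTG was found for 9 of the 47 genes (19.149%) and for 6.86% of all genes. TGATGNAA was found for 3 of the 47 (6.383%) and for 3.907% of all genes. No gene of the 47 held both motifs.

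Of the 7 genes called in EDL muscles for which a window was on hand (Slc36a1, Slc38a4, Slc6a9, Slc7a1, Slc7a8, Slc1a1 and Slc38a10), only Slc36a1 held a match, a CACGTG whose first base lies at -31 from the start site. The other 8 genes with CACGTG were Slc1a6, Slc1a7, Slc38a5, Slc38a7, Slc43a1, Slc6a16, Slc6a3 and Slc7a14. Of these only Slc38a7 and Slc43a1 had counts enough to be tested, and neither was called in EDL muscles. The window of Slc36a1 (chr11:55204090-55204339, plus strand) is printed with the match in capitals, beside that of Slc7a1 (chr5:148399905-148400154, minus strand), the gene with the largest rise, which held neither motif. A match is a run of letters, and says nothing about binding in these muscles.
Slc36a1: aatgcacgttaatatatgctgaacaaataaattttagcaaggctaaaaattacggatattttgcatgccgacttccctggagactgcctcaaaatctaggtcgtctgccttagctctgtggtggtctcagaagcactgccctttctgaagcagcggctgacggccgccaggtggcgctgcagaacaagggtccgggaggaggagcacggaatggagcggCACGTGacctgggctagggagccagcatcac
Slc7a1: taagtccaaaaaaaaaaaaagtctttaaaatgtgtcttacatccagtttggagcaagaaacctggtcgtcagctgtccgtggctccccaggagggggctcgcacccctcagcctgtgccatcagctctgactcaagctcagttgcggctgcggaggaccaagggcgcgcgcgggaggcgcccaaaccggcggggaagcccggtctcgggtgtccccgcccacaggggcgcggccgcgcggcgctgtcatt

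**Figure D2:**
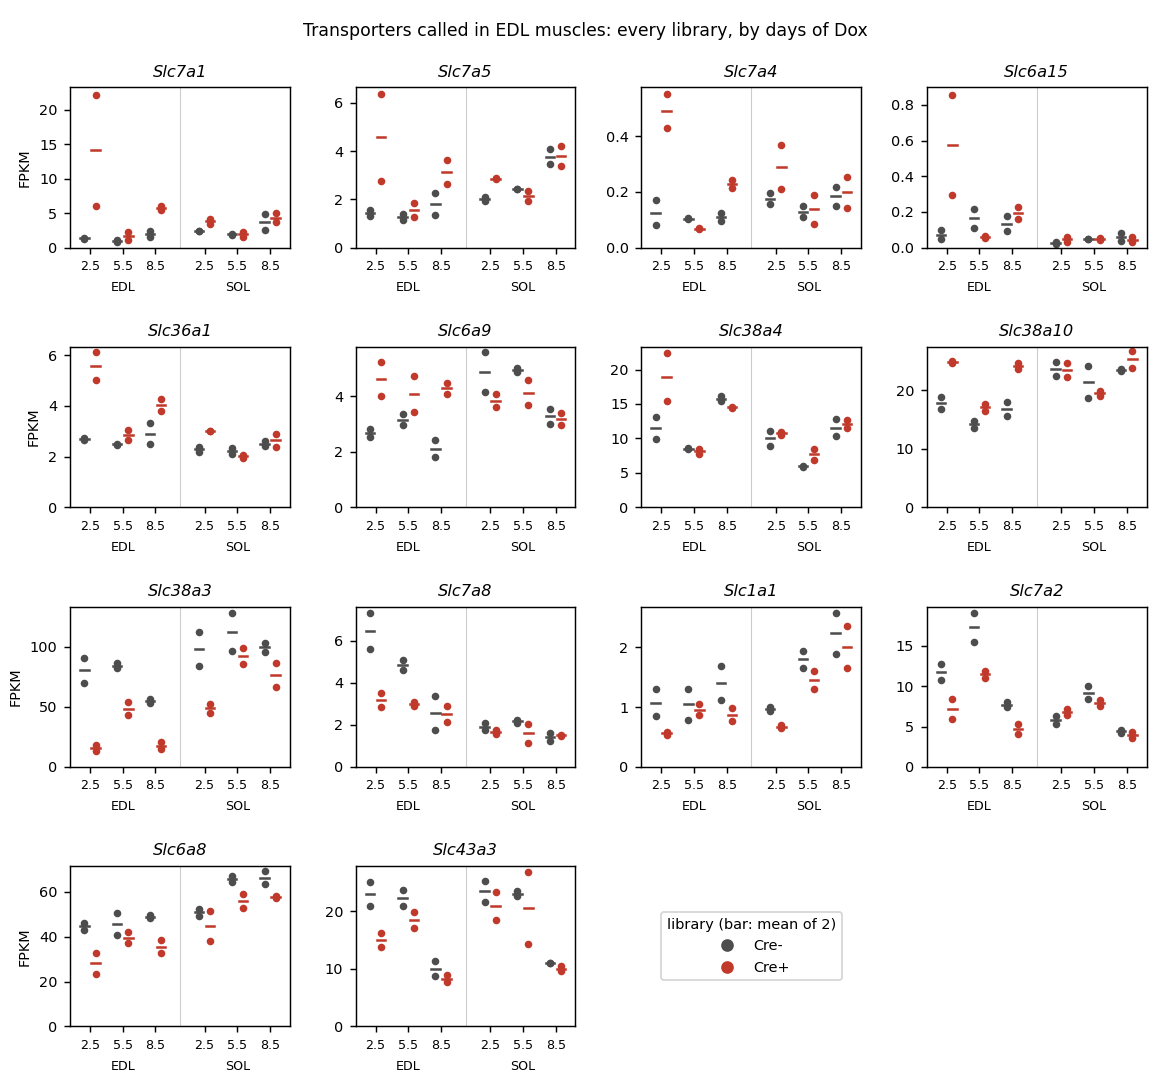
Every library of the 14 carriers called in EDL muscles at 2.5 or 8.5 days, in FPKM on linear axes from 0, by muscle and days of Dox. Points are libraries (grey Cre-, red Cre+) and bars are means of 2. Slc7a1 and Slc7a5 show a wide gap between the 2 Cre+ EDL libraries of 2.5 days, and Slc38a3 lies below the controls in EDL muscles at every time point.

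At 8.5 days of Dox 4 carriers rose in Cre+ EDL muscles, 2 fell and 39 of the 45 tested genes were not called. Of all genes 7.63% were called higher and 6.50% lower, and the medians were 0.08 over the 45 genes and -0.02 over all genes. Slc7a1, Slc36a1, Slc6a9, Slc38a3 and Slc7a2 were called at both time points, 8 carriers at 2.5 days only, and Slc38a10 at 8.5 days only. The plot of every library of the called carriers shows these values. With library size alone, 9 genes were higher and 2 lower, beside 1956 and 542 of all genes, whose median was 0.16. None of the 10 endothelial markers was called at 8.5 days, and 2 of 10 fast fibre genes and 5 of 12 liver genes fell. Of 8 satellite cell markers 2 rose and 6 were not called (median 0.21, summed level 126 to 163 FPKM against 59.1 to 69.3). The part of these shifts in the changes of carriers was not tested.

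Slc38a3 was at 14.8 and 20.3 FPKM in the Cre+ EDL libraries of 8.5 days and at 53.4 and 56.2 in the Cre- libraries. Its log2 fold change was -1.62 (SE 0.22, adjusted p = 0.000549). Slc6a9 was at 4.08 and 4.49 FPKM against 1.81 and 2.41, or 1.04 (SE 0.20, adjusted p = 0.00372). Both genes were well apart between genotypes and were called under all 13 alternatives at this time point.

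Slc38a10, a family member of little known function, was at 24.6 and 23.6 FPKM in Cre+ libraries against 15.6 and 18. The log2 fold change was 0.54 (SE 0.11, adjusted p = 0.00702). At 2.5 days its libraries were apart in the same way, at 24.6 and 24.9 against 16.8 and 18.8, and its log2 fold change of 0.47 passed the test (adjusted p = 0.00906) but not the limit of 0.5 on the fold change.

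Slc7a1 was at 6.04 and 5.39 FPKM against 1.5 and 2.46, or 1.55 (SE 0.46, adjusted p = 0.0391). Its Cre+ libraries agreed closely at 8.5 days, as did their Myc levels of 75.8 and 71.9 FPKM. Their Slc7a1 levels were near that of the Cre+ EDL library of 2.5 days with Myc at 22.2 FPKM. They were far below that of the library with Myc at 82.4. Whether Slc7a1 follows the level of Myc was not tested. Slc7a2 was at 4.09 and 5.26 FPKM against 8.02 and 7.41, or -0.70 (SE 0.18, adjusted p = 0.0220). Slc36a1, at 4.28 and 3.79 against 2.48 and 3.31, lay at the limit of the call, with 0.50 (SE 0.16, adjusted p = 0.0494), and was called in only 4 of 13 alternatives.

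The calls of 8.5 days rest on few libraries. Without the first Cre+ library Slc38a10 (0.52), Slc36a1 (0.42), Slc7a1 (1.47) and Slc7a2 (-0.53) were not called. Without the first Cre- library these 4 were not called either, at 0.45, 0.31, 1.24 and -0.64. Without the second Cre+ library Slc36a1 (0.58) and Slc7a1 (1.62) were not called.

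The carriers that were called at 2.5 days only differed less at 8.5 days. Slc7a5 was at 3.65 and 2.63 FPKM against 1.35 and 2.26 (log2 fold change 0.82, SE 0.33, adjusted p = 0.117). Slc7a8 was at 2.92 and 2.14 FPKM against 1.74 and 3.37 (0.01, SE 0.27). The control level of Slc7a8 was itself lower on this day, so that its Cre+ libraries of both days lay between 2.14 and 3.53 FPKM. Slc38a4 was at 14.4 and 14.6 FPKM against 16.1 and 15.4 (-0.10).

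The difference between time points was itself tested, and by edgeR no carrier and 0% of all genes were called. At an unadjusted p under 0.05 were 7 carriers and 1469 of all genes. DESeq2 called no carrier, and 42 genes higher and 103 lower. Slc7a1 had a difference of -1.84 (SE 0.65, adjusted p = 0.400) and Slc38a4 of -0.81 (SE 0.26, adjusted p = 0.375). Without the first Cre+ library of 2.5 days both were called, at -2.48 and -1.05, in a fit in which more of all genes were called too.

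**Figure D3:**
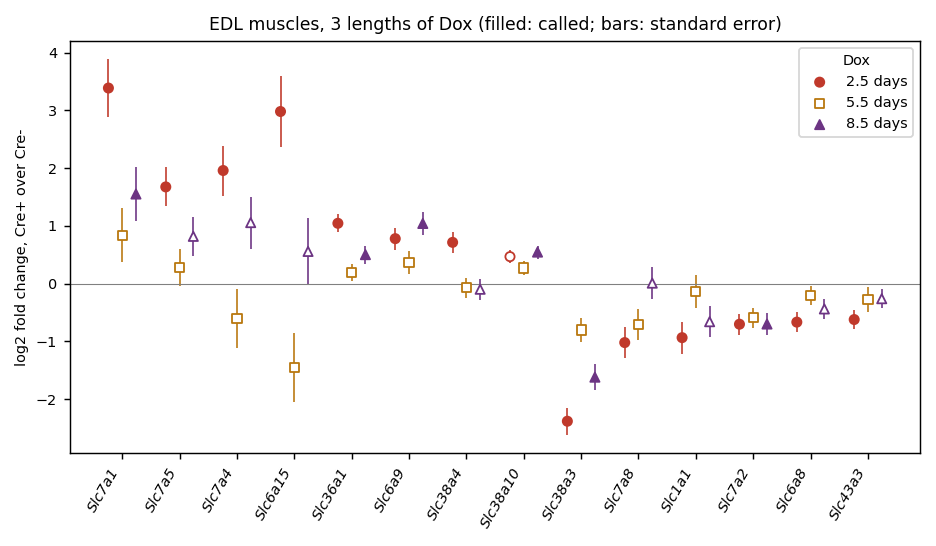
Log2 fold change of Cre+ over Cre- EDL muscles at 2.5, 5.5 and 8.5 days of Dox for the 14 carriers called at 2.5 or 8.5 days. Bars are standard errors, filled symbols are called and open symbols are not. Slc38a3 has the lowest values at 2.5 and 8.5 days, and no symbol of 5.5 days is filled.

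At 5.5 days no carrier was called in either muscle by edgeR, against 0.304% of all genes in EDL muscles and 0% in SOL muscles. At an unadjusted p under 0.05 were 6 carriers in EDL and 1 in SOL muscles, beside 1307 and 597 of all 15478 genes. DESeq2 called Slc38a3 lower in EDL muscles, DESeq2 on the 4 libraries of the comparison also called Slc7a2 and Slc7a8 lower, and neither called a carrier in SOL muscles, where they called 0 genes and, on 4 libraries, 17 higher and 20 lower. Slc38a3 was at 53.8 and 42.9 FPKM in Cre+ EDL libraries against 86.1 and 82.5. The genotypes did not overlap, and the log2 fold change was -0.80 (SE 0.21, adjusted p = 0.160).

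The cassette was uneven at 5.5 days. Pou5f1 was at 1.07 and 29.4 FPKM in the 2 Cre+ EDL libraries and at 0.081 and 0.400 in the Cre+ SOL libraries, against at most 0.094 in any Cre- library. The Cre+ EDL library with more Pou5f1 had the lower Slc38a3 (42.9 FPKM) and the higher Slc7a1 (2.24 against 1.13 FPKM). The plot of changes by day places the values of 5.5 days between 0 and those of 2.5 days except in Slc7a4 (-0.60), Slc6a15 (-1.45) and Slc38a4 (-0.07), which lie on the other side of 0.

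In SOL muscles no carrier was called at 2.5 or 8.5 days by edgeR. At 2.5 days 0.345% of all genes were called higher and 0.0390% lower, and at 8.5 days 0.332% higher and 0.299% lower. At an unadjusted p under 0.05 were 7 carriers at 2.5 days, beside 2053 of all 15372 genes, and 2 at 8.5 days, Slc38a2 (-0.78) and Slc7a3 (-1.70), beside 1015 of all genes. The median log2 fold changes of the 45 genes were 0.07 and -0.06, beside 0.02 and -0.01 over all genes.

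Slc38a3 came nearest to a call. It was at 45 and 52.3 FPKM in Cre+ SOL libraries of 2.5 days and at 113 and 84.1 in Cre- libraries. The genotypes did not overlap, the log2 fold change was -1 (SE 0.22) and the adjusted p was 0.0903. DESeq2, the fit of all 24 libraries and the fit without a filter on low counts each called it lower. DESeq2 on the 4 libraries of the comparison also called Slc38a2 lower and Slc7a1 higher (0.68). At 8.5 days Slc38a3 was at 66.4 and 86.5 FPKM against 95.6 and 103, or -0.37, and DESeq2 called no carrier. Of 12 liver genes 11 fell in SOL muscles at 8.5 days, with a summed level of 16.1 to 20.6 FPKM in Cre+ and 56.8 to 149 in Cre- libraries.

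Other carriers that rose or fell in EDL muscles gave values in SOL muscles at 2.5 days that did not pass the test. Slc7a1 was at 4.13 and 3.45 FPKM against 2.34 and 2.41 (0.69, SE 0.46). Slc7a5 was at 2.90 and 2.82 FPKM against 1.92 and 2.11 (0.52). Slc6a9 was at 3.60 and 4.06 FPKM against 5.59 and 4.16 (-0.33). The SOL controls of Slc7a1 and Slc6a9 were above the EDL controls.

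Whether a change differs between muscles was tested as an interaction. At 2.5 days 3 carriers were called, beside 4.25% of all genes. Slc7a1 rose more in EDL than in SOL muscles, with a difference of log2 fold changes of 2.69 (SE 0.65, adjusted p = 0.0394). Slc38a3 fell more in EDL muscles, with a difference of -1.39 (SE 0.31, adjusted p = 0.0291). Slc6a9 rose in EDL muscles and had a value of -0.33 in SOL muscles, with a difference of 1.10 (SE 0.27, adjusted p = 0.0411). EDL and SOL libraries of one number deviated together and were taken as muscles of one mouse, although the labels name no mouse. With the mouse as a block Slc7a2 was called too, at -0.96 (adjusted p = 0.0302).

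The 3 calls depend on single libraries. Leaving out any one of 6 libraries lost all 3 calls, and leaving out the second Cre- SOL library lost those of Slc7a1 and Slc38a3. Without the first Cre+ EDL library more carriers were called, and so were more of all genes. Without the second Cre+ EDL library the differences were 1.49 for Slc7a1, -1.15 for Slc38a3 and 0.91 for Slc6a9. At 8.5 days no carrier was called, beside 0.592% of all genes. At an unadjusted p under 0.05 were 6 carriers, beside 1729 of all genes. With the mouse as a block 2 carriers were called at 8.5 days, Slc6a9 at 1.08 (adjusted p = 0.0367) and Slc38a3 at -1.26 (adjusted p = 0.0369), and DESeq2 called the same 2 genes.

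**Figure D4:**
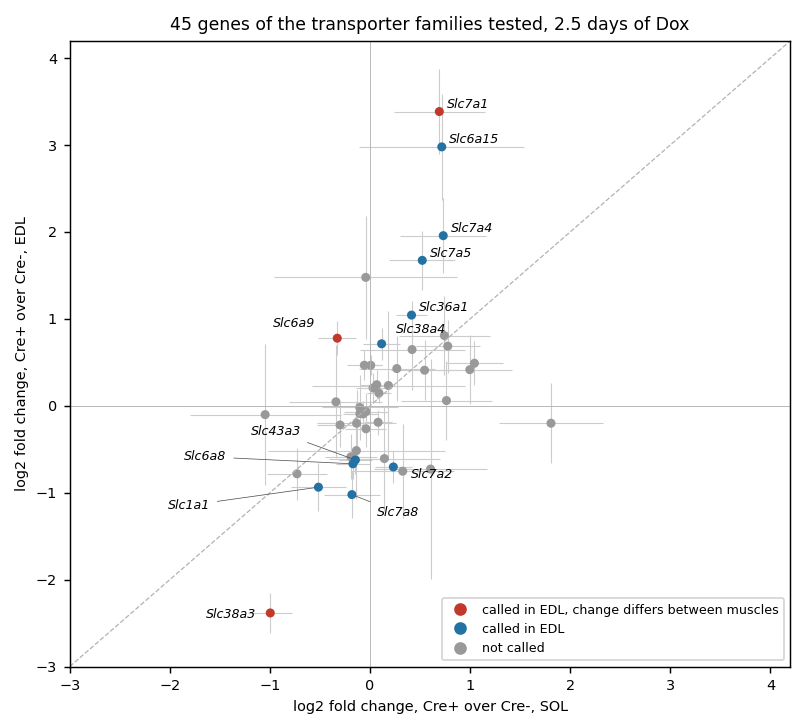
Log2 fold change of Cre+ over Cre- at 2.5 days in EDL muscles (vertical axis) against that in SOL muscles (horizontal axis) for the 45 tested genes, with standard errors as bars. The dashed line marks equal changes. Slc7a1, Slc6a9 and Slc38a3, in red, are the 3 carriers whose changes differed between muscles.

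In the plot of EDL against SOL changes the 7 carriers that rose in EDL muscles lie above the dashed line, and the 6 that fell lie below it. They were picked by their change in EDL muscles, which favours these sides of the line, so their places are no measure of a difference between muscles. The difference between muscles passed the test in only 3 of these 13. The sum of all 65 genes was 303 FPKM in Cre+ SOL muscles of 2.5 days and 370 in Cre- SOL muscles, and 331 and 377 at 8.5 days. Slc38a3 made up 15.1% and 16.9% of the sum in the Cre+ SOL libraries of 2.5 days and 28.2% and 24.8% in the Cre- libraries.

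The last comparison asks how the carriers of fast and slow muscle differ without OSKM. In Cre- mice of 2.5 and 8.5 days, 5 carriers were higher in EDL than in SOL muscles and 9 were lower. Of all genes 10.8% were called higher and 11.1% lower, and the medians were -0.06 over the 45 genes and 0.01 over all genes. The libraries of Slc7a10, Slc6a2, Slc38a3, Slc7a5 and Slc7a8 overlapped between muscles. With the mouse as a block 8 were higher and 11 lower, beside 1728 and 1822 of all genes in that fit. Those that the block added include Slc6a13 (0.56) and Slc6a15 (1.29) among the higher, and Slc38a2 (-0.51) and Slc7a1 (-0.83) among the lower. Markers of other cells differed between the muscles as well. Of 8 satellite cell markers 7 were lower in Cre- EDL muscles, while 4 of 7 erythroid markers (median 0.92) and 3 of 9 fibroblast markers (median 0.32) were higher, and their part in the results was not tested.

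The Slc43 carriers of large neutral amino acids divided between the muscles. Slc43a2 was at 4.36, 4.67, 5.47 and 5.35 FPKM in the 4 Cre- EDL libraries (2.5 days, then 8.5 days) and at 13.9, 12.8, 22.9 and 24.9 in the 4 Cre- SOL libraries. Slc43a1 was at 10, 9.44, 11.0 and 10.5 FPKM in EDL and 6.36, 4.02, 6.64 and 4.02 in SOL muscles. The ranges of both genes were apart, in opposite directions. The log2 fold changes of EDL over SOL were -1.83 (SE 0.086, adjusted p = 4.89e-08) for Slc43a2 and 0.98 (SE 0.19, adjusted p = 0.00143) for Slc43a1. Slc43a3 did not differ beyond its spread (-0.06).

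The cationic carrier Slc7a2 was at 12.7, 10.7, 8.02 and 7.41 FPKM in Cre- EDL and 6.36, 5.32, 4.61 and 4.2 in Cre- SOL libraries, or 0.93 (SE 0.13, adjusted p = 0.000160). The ranges were apart. It fell in Cre+ EDL muscles at both time points, to 8.47, 6, 4.09 and 5.26 FPKM, and these values overlap those of Cre- SOL muscles.

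Slc7a8 was at 7.32, 5.59, 1.74 and 3.37 FPKM in Cre- EDL and 2.07, 1.74, 1.24 and 1.62 in Cre- SOL libraries, or 1.32 (SE 0.20, adjusted p = 0.000239). Slc7a5, the other light chain of large neutral amino acids, was at 1.30, 1.55, 1.35 and 2.26 FPKM in EDL and 1.92, 2.11, 3.46 and 4.09 in SOL libraries, or -0.76 (SE 0.24, adjusted p = 0.0264). In both genes the overlap came from a single EDL library of 8.5 days. Slc7a5 was not called without either of the first EDL libraries or either of the second SOL libraries, with values between -0.72 and -0.60.

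Of the 9 tested Slc38 carriers 2 were lower in EDL muscles and none was higher. Slc38a3 had a log2 fold change of -0.55 (SE 0.15, adjusted p = 0.0160), and was not called without the second EDL library of 2.5 days (-0.46), the first SOL library of 2.5 days (-0.44) or the second SOL library of 8.5 days (-0.52). Slc38a1, at 0.384 to 0.733 FPKM in EDL and 1.20 to 1.99 in SOL libraries, had -1.55 (SE 0.17, adjusted p = 2.29e-05). Slc1a4, a neutral amino acid exchanger, was at 0.701 to 0.905 FPKM against 1.15 to 2.37, or -1 (SE 0.25, adjusted p = 0.00750). Slc6a9 was at 2.83, 2.54, 1.81 and 2.41 FPKM against 5.59, 4.16, 3 and 3.55, or -0.72 (SE 0.14, adjusted p = 0.00146), with ranges apart.

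The remaining 5 carriers called between muscles were less abundant. Slc7a11, which imports cystine in exchange for glutamate, had 56, 36, 179 and 79 counts in EDL and 4, 6, 25 and 11 in SOL libraries (3.04, SE 0.46, adjusted p = 0.000280). Slc6a18, known from kidney, had 1, 3, 4 and 0 counts in EDL and 27, 48, 22 and 50 in SOL libraries. Its fitted value of -4.07 (SE 0.59, adjusted p = 0.000186) rests on these few counts and was -6.28 without the EDL library of 4 counts. Slc3a1, the heavy chain of kidney and gut, had 2, 4, 2 and 4 counts in EDL and 10, 14, 5 and 11 in SOL libraries (-1.63, SE 0.41, adjusted p = 0.00820) and was not called without the second SOL library of 8.5 days (-1.36).

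Slc3a1 shares 765 bases with Prepl on the opposite strand. Prepl stood at a mean of 12.2 FPKM and was lower in Cre- EDL muscles too, with a log2 fold change of -1.28 (SE 0.066). Whether the counting used the strand is not stated, so the counts of Slc3a1 may be reads of Prepl. Slc7a11 held 2 TGATGNAA matches in a single window, 1 on each strand. Its window (chr3:50443614-50443863, minus strand, GRCm38.p6, from RefSeq) is printed with both in capitals.
Slc7a11: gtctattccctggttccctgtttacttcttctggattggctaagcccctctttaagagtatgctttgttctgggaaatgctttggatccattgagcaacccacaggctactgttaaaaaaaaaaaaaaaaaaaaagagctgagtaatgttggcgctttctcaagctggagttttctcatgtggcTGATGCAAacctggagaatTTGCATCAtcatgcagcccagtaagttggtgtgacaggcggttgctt

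Slc7a10, a light chain for small neutral amino acids that is known from fat and brain, was at 0.513, 0.368, 0.525 and 0.196 FPKM in Cre- EDL and 3.09, 0.349, 3.21 and 0.872 in Cre- SOL libraries, or -2.20 (SE 0.60, adjusted p = 0.0137). The SOL libraries differed widely. All 10 adipocyte markers were lower in Cre- EDL muscles, with a median of -2.45, and their summed level was 1212, 725, 1224 and 635 FPKM in the 4 Cre- SOL libraries in the same order. The 2 SOL libraries with most Slc7a10 were those with most adipocyte markers, and the part of fat in the result was not tested. Without the first SOL library of 2.5 days Slc7a10 was not called, at -1.06, nor was it without the first SOL library of 8.5 days (-1.59) or the second EDL library of 2.5 days (-2.09) or 8.5 days (-1.92).

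Slc6a2, the noradrenaline carrier of sympathetic nerve, was at 0.144, 0.126, 0.607 and 0.468 FPKM in EDL and 0.0531, 0.0717, 0.299 and 0.305 in SOL libraries, or 0.99 (SE 0.19, adjusted p = 0.00142). It was higher in EDL than in SOL libraries on each day, and higher at 8.5 than at 2.5 days in both muscles. Of 10 Schwann cell markers 6 were higher and 1 was lower in Cre- EDL muscles (median 0.91), and the part of nerve in the result was not tested.

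**Figure D5:**
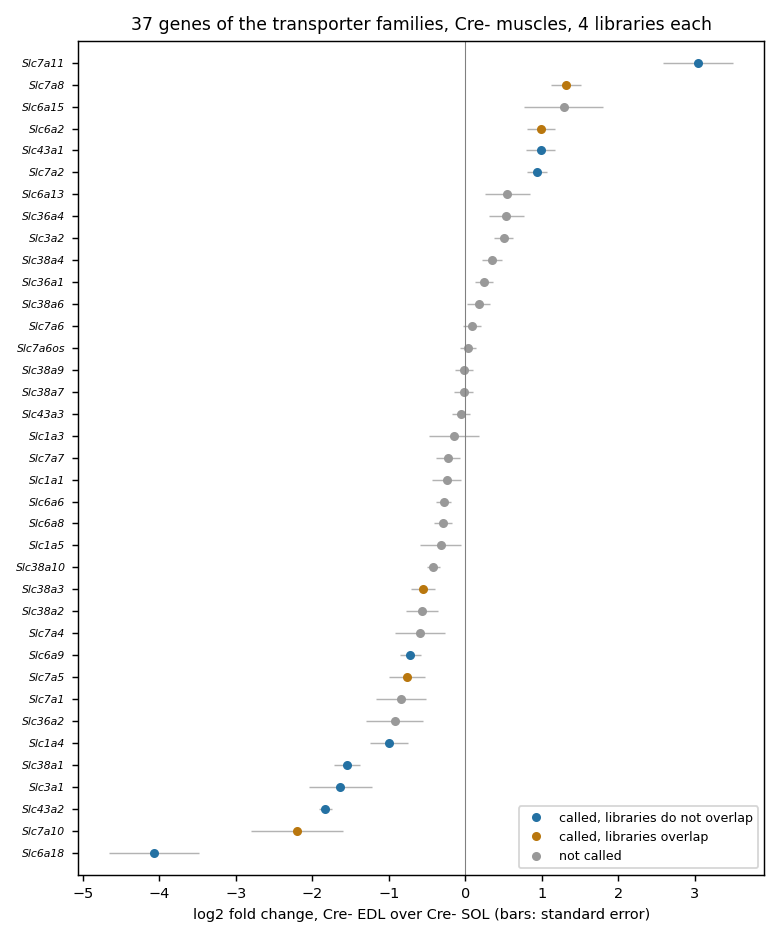
Log2 fold change of Cre- EDL over Cre- SOL muscles for the 37 tested genes that reached 1 FPKM in a group or were called in a comparison, with standard errors as bars, over 4 libraries per muscle. Blue points are called genes whose libraries do not overlap, orange points called genes whose libraries do, and grey points were not called. Values run from -4.07 for Slc6a18 to 3.04 for Slc7a11.

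The plot of muscle differences shows that its 23 genes not called between muscles ran from -0.93 for Slc36a2 to 1.29 for Slc6a15. Among them were abundant carriers that differed by less than the limit on the fold change. Slc38a10 was at 16.8, 18.8, 15.6 and 18 FPKM in Cre- EDL and 22.3, 24.8, 23.6 and 23.2 in Cre- SOL libraries. The ranges did not overlap and the log2 fold change of -0.42 had an adjusted p of 0.00160. Its level in Cre+ EDL libraries, 23.6 to 24.9 FPKM at 2.5 and 8.5 days, overlapped that of the Cre- SOL libraries. Slc3a2 stood at 0.50 (adjusted p = 0.00723), just under the limit.

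Other genes of amino acid handling, from lists written with earlier results of these data known, were set beside the carriers. Of 29 tested enzymes of amino acid metabolism 7 rose and 5 fell in Cre+ EDL muscles at 2.5 days. Of all genes tested 13.8% were called higher and 10.2% lower. Those that rose act in the synthesis of serine (Psat1, 2.78), asparagine (Asns, 1.65), proline (Aldh18a1, 1.56, and Pycr1, 1.45) and creatine (Gatm, 1.47, and Gamt, 1.51), or oxidise glutamate (Glud1, 0.73). Gpt2, which makes alanine, fell by 2.06 on the log2 scale, the aspartate aminotransferase Got1 by 1.19, and Psph (of serine synthesis, like Psat1), Csad and Bckdha by 0.72, 0.59 and 0.55. The median over the list was -0.14. The creatine carrier Slc6a8 fell at 2.5 days in the muscles in which both listed enzymes of creatine synthesis rose. At 8.5 days Slc6a8 was not called, and a link between them was not tested.

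At 8.5 days 4 enzymes rose and 7 fell, beside 7.63% and 6.50% of all genes. Psat1 (1.72), Gatm (1.64), Gamt (1.49) and Pycr1 (0.82) rose again, and Gpt2 (-2.53), Got1 (-0.76), Psph (-0.78) and Bckdha (-0.59) fell again, joined by Ppm1k, Dbt and Bckdhb of branched-chain keto acid breakdown. In SOL muscles only Gatm was called, at 2.5 days (1.20, adjusted p = 0.0311).

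Of 30 genes of amino acid sensing by mTORC1, 3 rose and 1 fell at 2.5 days in EDL muscles. Neither share was above that of all genes (13.8% and 10.2%). Rragb (1.05) and Rragc (0.50) encode Rag GTPases, Depdc5 (0.67) belongs to the complex that restrains them, and Gatsl2 (-1.12, also called Castor2) is a relative of the arginine sensor. At 8.5 days Depdc5 (0.51) rose, and Gatsl2 (-1.04) and Fnip1 (-1.29) fell, beside 7.63% higher and 6.50% lower of all genes.

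Of 14 tested targets of the amino acid response, 2 rose (Asns and Psat1, both also in the enzyme list) and 2 fell (Vegfa, -1.22, and Ddit3, -0.72) at 2.5 days, and 1 rose and 2 fell at 8.5 days. The shares of all genes called at each time point were those given above. The median over the list was -0.35 at 2.5 days. Among 9 tested amino acid and dipeptide carriers of other families, Slc15a4, a lysosomal carrier of histidine and peptides, rose by 0.80 and 0.55 at the 2 time points. Slc16a10, a carrier of aromatic amino acids, fell by 1 and 0.90, and like Slc7a2 and Slc7a8 it was higher in EDL than in SOL muscles of Cre- mice (1.12, SE 0.13).

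Other carriers that reached 1 FPKM were not called in any comparison by edgeR with TMM and no block, and are given by level. Slc6a6 was between 17.3 and 37.1 FPKM in the 16 libraries, Slc1a5 between 6.40 and 23.3, and Slc38a2 between 11.7 and 39.3. Slc38a2 was lower in both Cre+ libraries than in both Cre- libraries of EDL muscles at 2.5 days (12.8 and 13.2 against 23.5 and 20.9 FPKM), and its value of -0.78 did not pass the test (adjusted p = 0.0687). Slc1a3, a glutamate carrier of glia, was at 1.89 and 1.82 FPKM in Cre+ EDL libraries of 8.5 days against 0.897 and 0.731, and its value of 1.21 did not pass either (adjusted p = 0.0944).

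Slc7a6, Slc38a7 and Slc38a9 were among the steadiest carriers, with log2 fold changes between -0.24 and 0.29 in every comparison of Cre+ with Cre- muscles at 2.5 and 8.5 days. Slc38a9, the carrier through which lysosomal arginine is sensed, stayed between 1.35 and 2.18 FPKM in all 16 libraries. Slc38a6, Slc7a7, Slc36a2, Slc36a4 and Slc6a13, the other carriers at 1 FPKM or more, were likewise not called without the mouse as a block, and Slc7a6os, the row that encodes no carrier, lay between 6.27 and 8.27 FPKM.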

How the data were processed

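Total RNA of whole EDL and SOL muscles was extracted with Trizol, and polyA libraries were sequenced as single-end reads. Per the submitters' processing notes the genome build was mm10 and the aligner STAR 2.5.3a. The authors deposited raw counts per gene made with HOMER. Whether the counting used the strand is not given in the sources used here. The counts were tested with edgeR 4.0.16 (R 4.3.3; TMM, filterByExpr with a minimum count of 10, quasi-likelihood test) in 1 model of 8 groups and 16 libraries, over 15372 genes. Values of 5.5 days came from a model of all 24 libraries over 15478 genes. FPKM were computed from the deposited counts, exon lengths and TMM-scaled library sizes. DESeq2 1.42.0, other scalings and filters, replicate blocks and leaving out 1 library were tried as alternatives.

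EDL and SOL libraries of the same genotype, day and number deviated together (r across genes 0.174 to 0.441 in 6 groups). The number was therefore taken, without a label that says so, to pair the muscles of a mouse. Cre+ and Cre- libraries of the same number did not (-0.171 to 0.058). The study calls the libraries of a group independent biological samples, and p-values measure the spread between them. On simulated data with 200 genes changed in EDL muscles at 2.5 days, edgeR recovered 136 of them and called 9 of the other genes, over 15163 genes. No changes as small as those of Slc6a8 or Slc43a3 were simulated, and all groups were given the same spread. The figures therefore need not hold for such calls.

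The genes, lists and tests were chosen with earlier results of these data known. Genes are named where they reached 1 FPKM in a group or were called in any comparison. Values per library are given for those called in EDL muscles and the most abundant, and a few others named for their values were chosen after these were seen. RefSeq promoter windows of GRCm38.p6 were used as given, for the genes that have one. The values of 1 gene are not reported here.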

Additional observations from a re-analysis of the deposited data

Results flagged for a closer look

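In 3 carriers the change from Cre- to Cre+ at 2.5 days differed between EDL and SOL muscles by a test of the difference itself. The log2 fold change in EDL minus that in SOL muscles was 2.69 for Slc7a1, 1.10 for Slc6a9 and -1.39 for Slc38a3. Over 17 alternatives the directions were kept, with ranges of 1.49 to 3.34, 0.88 to 1.30 and -1.67 to -1.15. The calls were kept in 9, 11 and 10 of the 17. The lowest value of Slc7a1 and the highest of Slc38a3 were both those without the second Cre+ EDL library of 2.5 days, the library of that group with more Myc.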

How the results depend on the processing

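No call of a carrier reversed its direction under any alternative. With library size alone, 12 carriers were higher and 1 lower in EDL muscles at 2.5 days and 9 higher at 8.5 days. All genes divided into 4207 higher and 610 lower at 2.5 days, against 2118 and 1566 with TMM. At 8.5 days they divided into 1956 and 542, against 1173 and 999 with TMM. DESeq2 called 1 carrier lower in SOL muscles at 2.5 days, 1 lower in EDL muscles at 5.5 days and 2 whose change differed between muscles at 8.5 days. On the 4 libraries of a comparison it called 1 higher and 2 lower in SOL muscles at 2.5 days and 3 lower in EDL muscles at 5.5 days. Without a filter on low counts, and in the fit of 24 libraries, 1 carrier was lower in SOL muscles at 2.5 days.

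With the mouse as a replicate block, 8 carriers were higher and 11 lower in EDL than in SOL muscles of Cre- mice, and changes differed between muscles for 4 carriers at 2.5 days and 2 at 8.5 days. With the number within a day as a block, which does not pair the genotypes, 7 carriers were higher and 6 lower in EDL muscles at 2.5 days, 3 and 3 at 8.5 days, 6 and 9 in Cre- EDL against SOL muscles, and the changes of 2 differed between muscles at 2.5 days.

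Leaving out 1 library gave 5 to 9 higher and 2 to 4 lower in EDL muscles at 2.5 days, and 1 to 5 higher and 1 to 2 lower at 8.5 days. It gave 0 to 1 lower in SOL muscles at 8.5 days, where the 1 came without the first Cre- library. Changes that differed between muscles at 2.5 days, or between days, were called most often without the first Cre+ EDL library of 2.5 days. More of all genes were called in that fit too. Cre- EDL against SOL muscles gave 5 to 6 higher and 7 to 10 lower. Of the calls of single carriers, 307 were kept and 13 lost over the other alternatives, and 154 kept and 58 lost without 1 library. Those other alternatives include the main fit without a limit on the fold change, which keeps every call by construction. The 20 genes with too few counts were not tested, and the precision is limited by 2 libraries a group.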
